A study of Mus musculus with 6 samples.

Results

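Interferon-stimulated genes are the genes that cells switch on after interferon, a secreted signal of viral infection, binds its receptor. A set of 39 such genes was followed by name through the 6 RNA-seq libraries of this series, out of 32564 genes summed from the deposited transcripts. All 39 were in the files, as 162 transcripts, and each had at least 1 count. The libraries were made from cells sorted as quiescent neural stem cells (qNSCs) from the subependymal zone, the stem cell niche beside the lateral ventricles, of 3 months old mice. All mice carried gfap:GFP, a transgene that places green fluorescent protein under the promoter of Gfap, a gene of astrocytes and neural stem cells, and the labels spell their strain C56BL/6J. Cells were isolated 3 days after the ventricles were injected with artificial cerebrospinal fluid (aCSF, the vehicle group, 3 libraries) or with an antagomir, an oligonucleotide that blocks a microRNA, against miR-204 (the antagomir group, 3 libraries). No uninjected group and no control oligonucleotide are named in the labels, so every library followed an injection and the effect of an injected oligonucleotide as such cannot be told apart from that of blocking miR-204. Separate animals, pools or repeat preparations are not distinguished among the replicates in the labels, so a p-value below refers to the spread among these libraries, which could be technical alone.

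Type I interferons bind a receptor made of IFNAR1 and IFNAR2, whose kinases JAK1 and TYK2 phosphorylate STAT2. Phosphorylated STAT2 enters a complex with IRF9, and the complex binds a DNA element in the promoters of its target genes. The targets include sensors of viral RNA, GTPases that trap virus particles, membrane proteins that block virus entry or release, and the small ubiquitin-like protein ISG15. In the brain, microglia and vessel cells are known for strong responses of this kind, and neural stem cells are known to express some of the targets without added interferon.

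The DNA element is shown first because many members hold it. The members were not chosen by the element but as interferon-stimulated genes, so its share among them is not independent of that choice. The element was searched as GAAA, any 2 bases, GAAA, on either strand, in RefSeq promoter windows of 300 bases (250 before to 50 after the start site, GRCm38.p6). A total of 30 of the 39 members matched a promoter in that table, with 35 windows. The element was found in 16 of the 35 windows (45.7%), which belonged to 15 genes, and in 3.44% of all 32851 windows. The STAT-type element TTCNNNGAA was found in 8 of the 35 windows (22.9%), against 8.30% of all windows. A match describes the letters and is not a shown binding site. The windows below are the promoters of Isg15, which holds 3 overlapping matches, of Ifit1 and Gbp2, which hold the element on the other strand, and of Herc6, whose window holds none; capitals mark the matches to the GAAA element.
Isg15, chr4:156200769-156201068, minus strand: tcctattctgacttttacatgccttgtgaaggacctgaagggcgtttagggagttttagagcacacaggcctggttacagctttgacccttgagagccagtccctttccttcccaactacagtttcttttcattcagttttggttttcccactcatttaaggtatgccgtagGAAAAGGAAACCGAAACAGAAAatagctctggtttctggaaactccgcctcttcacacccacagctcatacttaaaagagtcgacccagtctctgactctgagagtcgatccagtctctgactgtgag
Ifit1, chr19:34640639-34640938, plus strand: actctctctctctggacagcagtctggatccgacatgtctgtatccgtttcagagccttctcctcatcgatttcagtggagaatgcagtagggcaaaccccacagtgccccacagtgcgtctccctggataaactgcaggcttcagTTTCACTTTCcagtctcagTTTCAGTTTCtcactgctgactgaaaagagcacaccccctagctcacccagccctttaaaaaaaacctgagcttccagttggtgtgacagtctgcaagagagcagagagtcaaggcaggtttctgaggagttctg
Gbp2, chr3:142620413-142620712, plus strand: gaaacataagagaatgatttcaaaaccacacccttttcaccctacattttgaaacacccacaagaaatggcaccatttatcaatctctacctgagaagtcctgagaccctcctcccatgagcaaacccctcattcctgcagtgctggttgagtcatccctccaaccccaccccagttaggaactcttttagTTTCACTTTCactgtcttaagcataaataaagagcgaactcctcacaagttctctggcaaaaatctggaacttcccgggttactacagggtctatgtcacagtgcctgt
Herc6, chr6:57580742-57581041, plus strand: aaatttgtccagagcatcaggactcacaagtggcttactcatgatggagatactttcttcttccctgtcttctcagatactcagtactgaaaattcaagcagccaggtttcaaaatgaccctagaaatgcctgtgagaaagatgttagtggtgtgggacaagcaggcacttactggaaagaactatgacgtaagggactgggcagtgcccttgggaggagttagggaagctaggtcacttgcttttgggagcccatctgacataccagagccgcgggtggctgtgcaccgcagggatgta

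In Isg15 the matches began 78, 72 and 66 bases before the start site, in Ifit1 104 and 85 bases before it, and in Gbp2 59 bases before it. Members with and without the element in their window were both found among those with the highest and those with the lowest levels. The level in vehicle replicate 1 divided by the mean of the other vehicle libraries had a median of 2.75 over the 14 members with a match that gave a ratio (range 0.532 to 137) and 1.72 over the 15 without (range 0 to 60.1). The ranges overlapped, and nothing follows from them about binding.

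One library stood apart for these genes. Vehicle replicate 1 had the highest level of the 6 libraries in 33 of the 39 members. Among the 32 members with enough counts to be tested it was the highest in 28 (87.5%), against 13.2% of all 15012 tested genes. The summed level of the members, in TPM (the deposited transcript abundance scaled by length and library, which can be compared between genes), was 2620.4 in that library, 862 and 921 in the other vehicle libraries, and 533, 724 and 813 in antagomir replicates 1, 2 and 3. Without vehicle replicate 1 the vehicle libraries still lay above the antagomir libraries in this sum, by a smaller distance. That separation rested on Ifitm3 and Ifi27, the most abundant members: without these 2 genes the sums were 351 and 378 TPM in vehicle replicates 2 and 3 and 221, 324 and 391 TPM with antagomir, and the groups overlapped. Fold changes below are therefore given with and without that library.

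The same library was rich in transcripts of other cells. The 19 microglia and macrophage markers summed to 3164, 441 and 281 TPM in vehicle replicates 1, 2 and 3 and to 235, 314 and 508 TPM in antagomir replicates 1, 2 and 3, and all 19 were highest in vehicle replicate 1, with no marker at 0 in any library. Red cell markers (5 genes) were also highest there, at 3387 TPM against 49.6 to 1342 TPM in the other libraries, while the 8 oligodendrocyte markers were lowest there, at 6729.8 TPM against 10234 to 15936 TPM. The 9 blood myeloid markers summed to 24.1, 2.51 and 7.05 TPM with vehicle and 22.9, 26.5 and 5.63 TPM with antagomir. This separate list was highest in antagomir replicate 2. Without vehicle replicate 1 the microglia sums of the groups overlapped, with a median log2 fold change of 0.0053 over the 19 markers. Of the 12 stem cell and astrocyte markers all were present in every library, with sums of 4002 to 5492 TPM, below those of the oligodendrocyte markers in every library. Other lists moved with the groups: the 8 neuroblast markers summed to 1014, 474 and 521 TPM with vehicle and 1589, 813 and 746 TPM with antagomir, and the 7 ependymal markers to 3449, 4331 and 4473 TPM and 2549, 4159 and 3783 TPM, so that for both the groups were apart once vehicle replicate 1 was left out. A list of 10 immediate early and heat shock genes, which respond to stress such as tissue dissociation, summed to 7693, 6165 and 7648 TPM with vehicle and 6047, 10918 and 13860.0 TPM with antagomir. All 10 had a higher fitted level with antagomir, with a median log2 fold change of 0.48, or 0.54 without vehicle replicate 1. Endothelial markers (9 genes) summed to 4.89 to 16.6 TPM, and of 9 lymphocyte markers Cd3e and Ncr1 were among those at 0 in every library. The part of these cell types and of stress in the levels of the interferon-stimulated genes was not tested, and in bulk samples fewer cells of a type and less RNA per cell cannot be told apart.

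**Figure D1:**
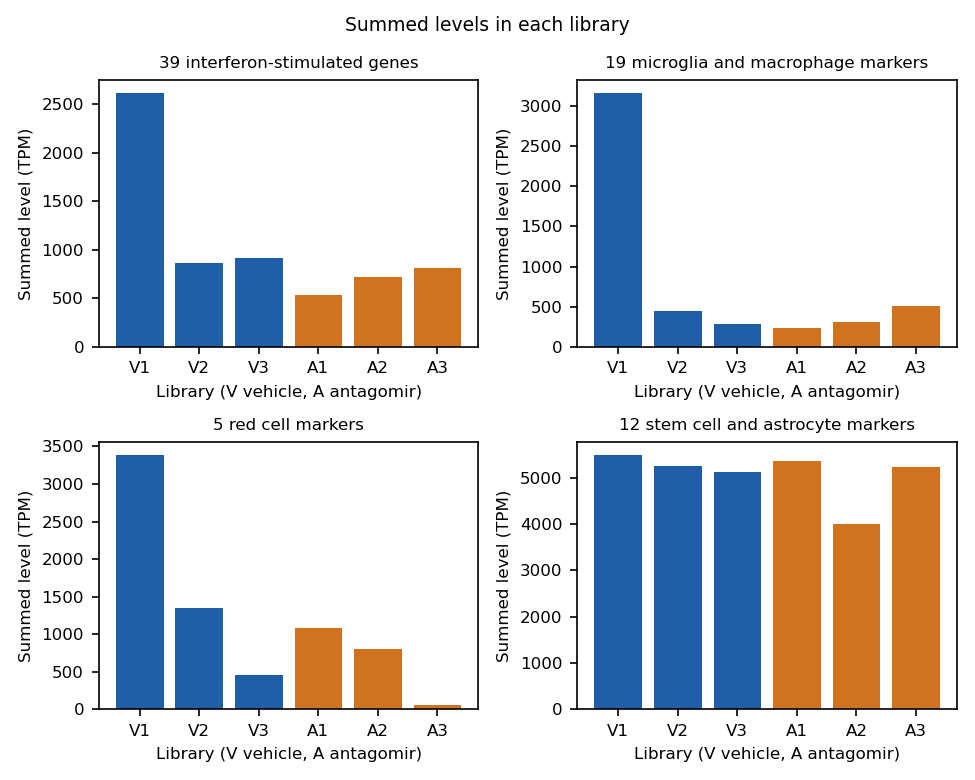
Summed TPM in each of the 6 libraries (bars, linear axes from 0; V vehicle in blue, A antagomir in orange, number is the replicate) for the 39 interferon-stimulated genes and 3 marker lists. Vehicle replicate 1 reached 2620.4 TPM for the interferon-stimulated genes and 3164 TPM for the microglia and macrophage markers, while the stem cell and astrocyte sums stayed between 4002 and 5492 TPM.

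Setting the antagomir group against the vehicle group asks whether the transcripts of the sorted cells differ between antagomir and aCSF injection. Most interferon-stimulated genes had a lower fitted level with antagomir, but none of them passed the test. Of the 39 members 32 had enough counts to be tested, and 0 of these passed an adjusted p of 0.05 (edgeR quasi-likelihood test, Benjamini-Hochberg over 15012 genes, of which 0% were called; the members' adjusted p ranged from 0.949 to 0.992). A lower fitted level with antagomir was found for 30 of the 32 (50.9% of all tested genes), and 15 of the 32 lay under an unadjusted p of 0.05 on the lower side (1.93% of all tested genes) against 0 on the higher side. The median log2 fold change of antagomir over vehicle was -1.06 over the 32 members and -0.0062 over all tested genes. In TPM every antagomir library lay below every vehicle library in 9 of the 32 tested members (3.7% of all tested genes), namely Bst2, Ddx60, Dtx3l, Gbp2, Ifi27, Ifit3, Ifitm3, Irf9 and Mx2. In library-scaled counts (CPM), which do not correct for transcript length, the same separation was found for 12 of the 32 (5.45% of all tested genes), with Herc6, Parp9, Rtp4 and Xaf1 added and Mx2 lost.

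Without vehicle replicate 1 the differences were smaller. A lower fitted level remained for 24 of the 32 tested members (50% of all 15371 genes tested in that fit), 6 members turned to a higher one, and the median log2 fold change was -0.47, against -0.00036 over all tested genes. Again 0 members passed edgeR's adjusted test (0% of all tested genes), and the smallest adjusted p among them was 0.292, for Herc6. At an unadjusted p under 0.05 there were 3 lower members, Gbp2, Herc6 and Ifitm3 (9.38% of the 32, against 2.02% of all tested genes). In TPM every antagomir library lay below every remaining vehicle library in 10 of the 32 (10.5% of all tested genes). These were the 9 named above, which leaving out a library cannot bring into overlap, and Herc6.

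**Figure D2:**
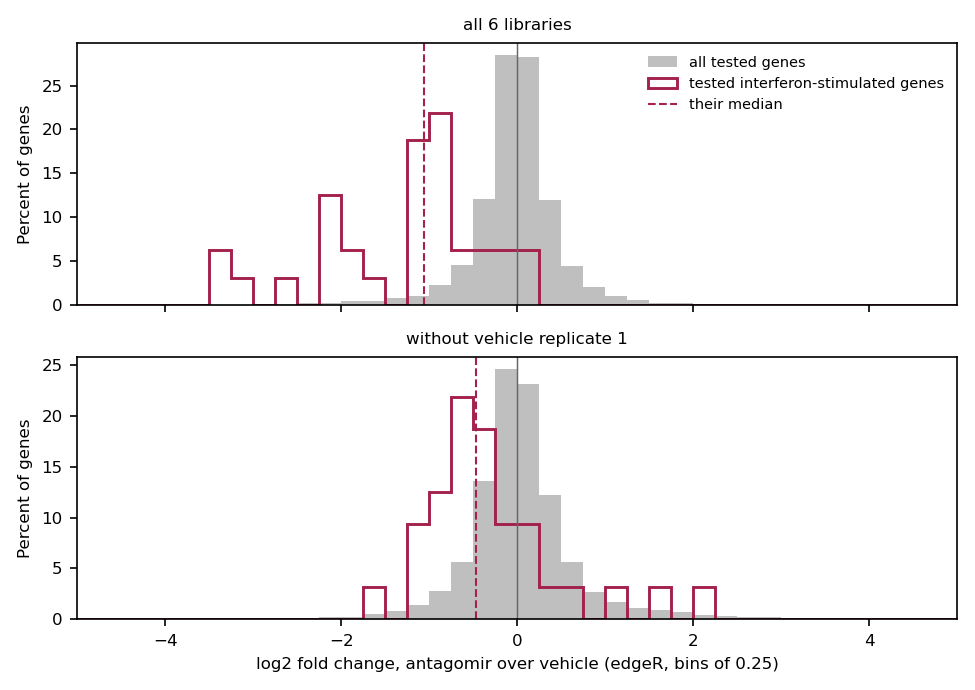
Distribution of log2 fold changes of antagomir over vehicle (x axis, bins of 0.25) as percent of genes (y axis), for all tested genes (grey) and the 32 tested interferon-stimulated genes (red outline, dashed line at their median), over 6 libraries above and without vehicle replicate 1 below. The members' median lies at -1.06 in the upper panel and at -0.47 in the lower one, while the bulk of all genes is centred at 0 in both.

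The members differed widely in level. Mean levels over the 6 libraries ran from 0.120 TPM (Oasl1) to 404 TPM (Ifitm3), with 18 members above 10 TPM and 4 below 1 TPM. In vehicle replicate 1, 37 members were above 1 TPM, and in the other 5 libraries 26 to 30. The members fell along a range between those seen almost only in vehicle replicate 1 and those at similar levels in all 6 libraries. The ratio of vehicle replicate 1 to the mean of the other vehicle libraries exceeded 10 in 7 of the 37 members for which it could be formed and was below 1 in 3, Herc6, Oas3 and Oasl1. Among the 32 tested members the ratio exceeded 10 in 4 and was below 1 in 1. Of 14994 tested genes with a ratio, it exceeded 10 in 145 and was below 1 in 8086. In the following, values are TPM in replicates 1, 2 and 3 in that order, means carry the SD over n = 3 libraries, and each fold change is the log2 ratio of antagomir to vehicle from edgeR, with its standard error.

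**Figure D3:**
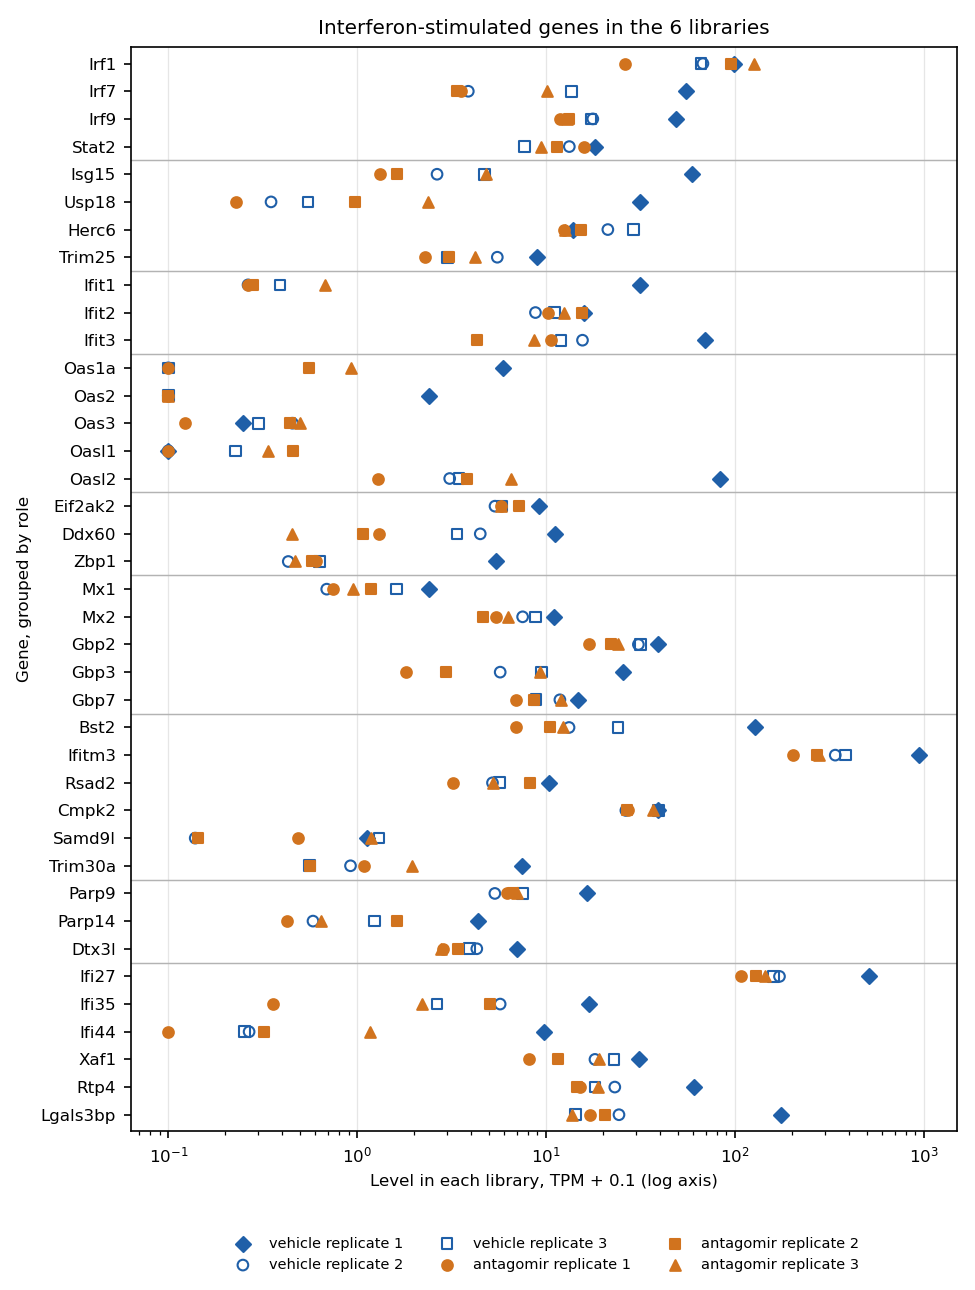
Level of each of the 39 interferon-stimulated genes in each of the 6 libraries (x axis, TPM + 0.1 on a log axis; 1 row per gene, grouped by role; blue for vehicle and orange for antagomir, with a filled diamond for vehicle replicate 1). The filled diamond is the rightmost symbol in 33 rows, and it lies far from the other symbols for Ifit1, Usp18, Oasl2, Ifi44 and Isg15.

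Among the factors that carry the signal to the genome, Irf9 was separated between the groups and the others were not. Irf9, the DNA-binding subunit of the STAT complex, measured 48.5, 17.6 and 17.2 TPM with vehicle and 11.7, 13.1 and 12.8 TPM with antagomir. The antagomir libraries were tightly grouped below all vehicle libraries, and the fold change was -1.13 ± 0.38, or -0.53 ± 0.24 without vehicle replicate 1. Irf7, which drives the second wave of interferon transcription, measured 55.2, 3.77 and 13.5 TPM with vehicle and 3.43, 3.28 and 9.98 TPM with antagomir. Its groups overlapped and its fold change of -2.15 ± 0.94 became -0.65 ± 0.75 without vehicle replicate 1. Stat2, which binds IRF9 in this complex, measured 18.1, 13.2 and 7.60 TPM with vehicle and 15.9, 11.3 and 9.26 TPM with antagomir, with overlapping groups and a fold change of -0.16 ± 0.34, or 0.18 ± 0.33 over 5 libraries. Irf1, a factor induced by both interferon types and by other stimuli, measured 98.1, 67.5 and 65.9 TPM with vehicle and 26.1, 95.5 and 126 TPM with antagomir, with antagomir replicate 1 lowest and antagomir replicate 3 highest of all 6 libraries. Its fold change was 0.14 ± 0.55, or 0.51 ± 0.58 over 5 libraries, so that the spread within the antagomir group was larger than the difference between the groups.

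The genes of ISG15 conjugation, by which the ubiquitin-like ISG15 is attached to other proteins, split into 2 patterns. Isg15 itself (chromosome 4, 156199424 to 156200818 in GRCm38) measured 58.8, 2.55 and 4.61 TPM with vehicle and 1.21, 1.53 and 4.69 TPM with antagomir. Only vehicle replicate 1 was high, the other 5 libraries held 7 to 34 counts each, and the fold change of -3.21 ± 1.24 became -0.60 ± 0.97 without it. Usp18, the protease that removes ISG15 and restrains the receptor, measured 31.2, 0.25 and 0.448 TPM with vehicle and 0.128, 0.874 and 2.26 TPM with antagomir. Its direction turned from -3.33 ± 1.73 to 1.53 ± 1.31 without vehicle replicate 1. Herc6, the main ISG15 ligase of the mouse (chromosome 6, 57581000 to 57664632), did not follow vehicle replicate 1, and measured 13.8, 21.1 and 28.9 TPM with vehicle and 12.3, 15.2 and 12.5 TPM with antagomir. In TPM antagomir replicate 2 lay above vehicle replicate 1, but in CPM the groups were apart, at 36.7, 45.4 and 50.6 CPM with vehicle and 20.9, 26.1 and 23.0 CPM with antagomir. Its leading transcript Herc6-201, which encodes protein and held 64.7% of the gene's TPM, was also apart, at 12.5, 15.5 and 16.0 TPM against 7.03, 8.51 and 7.61 TPM. The fold change of Herc6 was -0.93 ± 0.20 over 6 libraries (edgeR adjusted p = 0.949) and -1.04 ± 0.21 over 5 (adjusted p = 0.292). In the 5 libraries DESeq2 called it (log2 fold change -1.03 ± 0.24, adjusted p = 0.00344), as the 1 member among 222 called genes, 1.31% of those tested; over all 6 libraries DESeq2 called 5 genes (0.0241%) and 0 members. Trim25, a ubiquitin ligase that activates the RNA sensor RIG-I, measured 8.89, 5.42 and 2.90 TPM with vehicle and 2.18, 2.96 and 4.09 TPM with antagomir, with overlapping groups and a fold change of -0.99 ± 0.44, or -0.49 ± 0.42 over 5 libraries.

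The 3 Ifit members have products that bind foreign RNA and block its translation. They lie in the same cluster on chromosome 19 (34550694 to 34650009 in GRCm38) and yet differed from each other. Ifit1 measured 31.1, 0.164 and 0.290 TPM with vehicle and 0.165, 0.180 and 0.575 TPM with antagomir. It had 869 counts in vehicle replicate 1 and 4 to 15 in each other library, and was not tested for want of counts in enough libraries. Ifit3 measured 68.9, 15.5 and 11.9 TPM with vehicle and 10.4, 4.22 and 8.56 TPM with antagomir, with all antagomir libraries below all vehicle libraries and a fold change of -2.12 ± 0.69, or -0.86 ± 0.43 without vehicle replicate 1. Reads can be shared between Ifit3 and its near copy Ifit3b, which measured 66.0, 12.2 and 16.4 TPM with vehicle and 11.9, 8.53 and 16.5 TPM with antagomir, so the split between these 2 is uncertain. Ifit2 measured 15.8, 8.68 and 11 TPM with vehicle and 10.1, 15.4 and 12.4 TPM with antagomir. Its groups overlapped fully, with a fold change of 0.04 ± 0.27, or 0.28 ± 0.27 over 5 libraries, and vehicle replicate 1 exceeded antagomir replicate 2 by little.

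The oligoadenylate synthetases make the second messenger that turns on the RNA-degrading enzyme RNase L, and they were the least detected role. Oasl2, a related protein, measured 83.1, 2.99 and 3.35 TPM with vehicle and 1.19, 3.69 and 6.44 TPM with antagomir. It was high in vehicle replicate 1 only, and its fold change of -3.30 ± 1.33 became 0.07 ± 0.72 without that library. Of its TPM 52.6% was assigned to a transcript annotated as a target of nonsense-mediated decay. Oas2 had 96 counts in vehicle replicate 1 and 0 in each of the other 5 libraries, which against a floor of 3 counts over the antagomir group is at least 29.1-fold lower with antagomir and rests on that 1 library. Oas1a had 112 counts in vehicle replicate 1, 0 in the other vehicle libraries, and 0, 7 and 15 with antagomir, and the closely related Oas1g could share its reads. Oas3 (46 counts in all) and Oasl1 (5 counts in all) were close to the limit of detection in every library, and these 4 genes were not tested.

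Of the 3 other sensors of foreign nucleic acid, Ddx60 was separated between the groups. Ddx60, a helicase that aids RIG-I, measured 11, 4.38 and 3.27 TPM with vehicle and 1.21, 0.979 and 0.352 TPM with antagomir. Every antagomir library lay below every vehicle library, antagomir replicate 3 held 10 counts, and the fold change was -2.25 ± 0.76, or -1.5 ± 0.75 without vehicle replicate 1, the most negative value of any member in that fit. Eif2ak2, the kinase PKR that halts translation upon double-stranded RNA, measured 9.02, 5.26 and 5.74 TPM with vehicle and 5.67, 7.07 and 5.64 TPM with antagomir. Apart from vehicle replicate 1 its libraries lay close together, with a fold change of -0.33 ± 0.38 that turned to 0.14 ± 0.33. Zbp1, a sensor of Z-form nucleic acid, had 78 counts in vehicle replicate 1 and 2 to 7 in the others, and was not tested.

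All 5 antiviral GTPases had a lower fitted level with antagomir in both fits, and none passed the test. Gbp2, a guanylate-binding protein that responds most strongly to interferon gamma (chromosome 3, 142620602 to 142638008), measured 38.8, 30.7 and 31.6 TPM with vehicle and 16.8, 22.0 and 24.0 TPM with antagomir. The vehicle libraries were close together and all above the antagomir libraries, so that the fold change of -0.75 ± 0.21 was little altered without vehicle replicate 1, at -0.63 ± 0.23. Gbp3, its neighbour on chromosome 3, measured 25.4, 5.61 and 9.38 TPM with vehicle and 1.71, 2.83 and 9.18 TPM with antagomir, with vehicle replicate 2 below antagomir replicate 3. Its fold change was -1.85 ± 0.70, or -1.0 ± 0.63 without vehicle replicate 1. The third neighbour Gbp7 measured 11.7 ± 2.93 TPM with vehicle and 9.09 ± 2.60 TPM with antagomir, with a fold change of -0.56 ± 0.27, or -0.39 ± 0.29 over 5 libraries. Mx2, a dynamin-like GTPase, measured 10.9, 7.41 and 8.66 TPM with vehicle and 5.31, 4.54 and 6.18 TPM with antagomir, with groups that did not overlap and a fold change of -0.80 ± 0.36, or -0.54 ± 0.39 over 5 libraries. Of its TPM 85.8% was assigned to a transcript that GENCODE annotates as a polymorphic pseudogene. Mx1, whose gene is known to be damaged in most laboratory strains, measured 1.47 ± 0.853 TPM with vehicle and 0.861 ± 0.220 TPM with antagomir, with overlapping groups and a fold change of -0.87 ± 0.79, or -0.07 ± 0.89 over 5 libraries.

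Among 6 genes whose products restrict viruses by other means, Ifitm3 and Bst2 were separated between the groups and the other 4 were not. Ifitm3, which blocks virus entry at endosomes (chromosome 7, 141009586 to 141010770), was the most abundant member and measured 946, 339 and 384 TPM with vehicle and 203, 272 and 278 TPM with antagomir. All antagomir libraries lay below all vehicle libraries, with a fold change of -1.22 ± 0.38 over 6 libraries and -0.59 ± 0.19 over 5. Its near relative Ifitm2 measured 32.0, 27.7 and 29.5 TPM with vehicle and 36.9, 30.8 and 26.8 TPM with antagomir, without such a difference. Another relative, Ifitm1, measured 4.57, 2.54 and 8.13 TPM with vehicle and 1.82, 1.73 and 2.67 TPM with antagomir. The Ifitm1 groups overlapped at 6 to 44 counts in a library, with a fold change of -1.39 ± 0.77, or -1.37 ± 0.96 over 5 libraries. Bst2 (tetherin), which holds budding viruses on the cell surface, measured 128, 13.1 and 23.9 TPM with vehicle and 6.83, 10.4 and 12.2 TPM with antagomir. Its groups were apart by a narrow margin between antagomir replicate 3 and vehicle replicate 2, and the fold change of -2.58 ± 0.82 became -1.02 ± 0.52 without vehicle replicate 1. Rsad2 (viperin), an enzyme that makes a chain-terminating nucleotide, measured 10.3, 5.10 and 5.56 TPM with vehicle and 3.10, 8.10 and 5.15 TPM with antagomir, with antagomir replicate 2 above vehicle replicates 2 and 3 and a fold change of -0.73 ± 0.38, or -0.33 ± 0.36 over 5 libraries. Cmpk2, a nucleotide kinase gene next to Rsad2 on chromosome 12, measured 34.8 ± 7.36 TPM with vehicle and 30.1 ± 5.67 TPM with antagomir, with a fold change of -0.28 ± 0.22, or -0.18 ± 0.25 over 5 libraries, and vehicle replicates 1 and 3 were alike. Samd9l, an antiviral protein of the cytoplasm, had 2 to 48 counts in a library and a fold change of -0.20 ± 1.31, or -0.44 ± 1.5 over 5 libraries. Trim30a, of the TRIM family of ubiquitin ligases, had 298 counts in vehicle replicate 1 and 3 to 70 in the others. Its fold change of -1.55 ± 1.42 turned to 2.18 ± 1.16 without vehicle replicate 1.

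Parp9, Dtx3l and Parp14 lie together on chromosome 16 (35832874 to 35972605), and PARP9 and DTX3L form a complex that modifies histones and proteins of the interferon response. Dtx3l, its ubiquitin ligase, measured 6.91, 4.19 and 3.82 TPM with vehicle and 2.73, 3.30 and 2.69 TPM with antagomir. Its groups did not overlap, and the fold change was -1.06 ± 0.38, or -0.75 ± 0.39 without vehicle replicate 1. Parp9 measured 16.3, 5.25 and 7.38 TPM with vehicle and 6.07, 6.56 and 6.87 TPM with antagomir, so that apart from vehicle replicate 1 the libraries lay within 5.25 to 7.38 TPM, and the fold change was -0.77 ± 0.35, or -0.38 ± 0.33 over 5 libraries. Parp14, a larger relative, measured 4.28, 0.483 and 1.14 TPM with vehicle and 0.325, 1.52 and 0.543 TPM with antagomir, with a fold change of -0.90 ± 1.10 that turned to 1.16 ± 0.97 without vehicle replicate 1. In CPM antagomir replicate 2 stood at 5.82, against 0.912 and 1.93 in antagomir replicates 1 and 3. The TPM means without vehicle replicate 1 were alike, at 0.809 with vehicle and 0.795 with antagomir.

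The remaining members have less defined roles. Ifi27, a small membrane protein of mitochondria and nuclear envelope, was the second most abundant member and measured 511, 172 and 159 TPM with vehicle and 108, 129 and 144 TPM with antagomir. The antagomir libraries all lay below the vehicle libraries, with a fold change of -1.24 ± 0.46, or -0.41 ± 0.20 without vehicle replicate 1. Its neighbouring relative Ifi27l2a was at 69.6 TPM in vehicle replicate 1 and at most 4.23 TPM elsewhere. Rtp4, a chaperone of receptors that also binds RNA, measured 60.6, 23.0 and 18.1 TPM with vehicle and 15.1, 14.4 and 18.7 TPM with antagomir, with antagomir replicate 3 just above vehicle replicate 3 and a fold change of -1.24 ± 0.46, or -0.52 ± 0.32 over 5 libraries. Xaf1, an inhibitor of the caspase inhibitor XIAP, measured 30.7, 18.0 and 22.8 TPM with vehicle and 7.99, 11.5 and 19 TPM with antagomir, with antagomir replicate 3 above vehicle replicate 2 and a fold change of -1.06 ± 0.41, or -0.87 ± 0.45 over 5 libraries. Lgals3bp, a secreted glycoprotein, measured 176, 24.2 and 14.2 TPM with vehicle and 17.0, 20.3 and 13.6 TPM with antagomir. Apart from vehicle replicate 1 its groups overlapped, and the fold change of -2.08 ± 0.85 became -0.15 ± 0.32. Ifi35 measured 8.33 ± 7.52 TPM with vehicle and 2.43 ± 2.36 TPM with antagomir (fold change -1.91 ± 1.01, or -0.86 ± 1.03 over 5 libraries), and Ifi44 had 278 counts in vehicle replicate 1 and 0 to 25 in the others and was not tested.

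**Figure D4:**
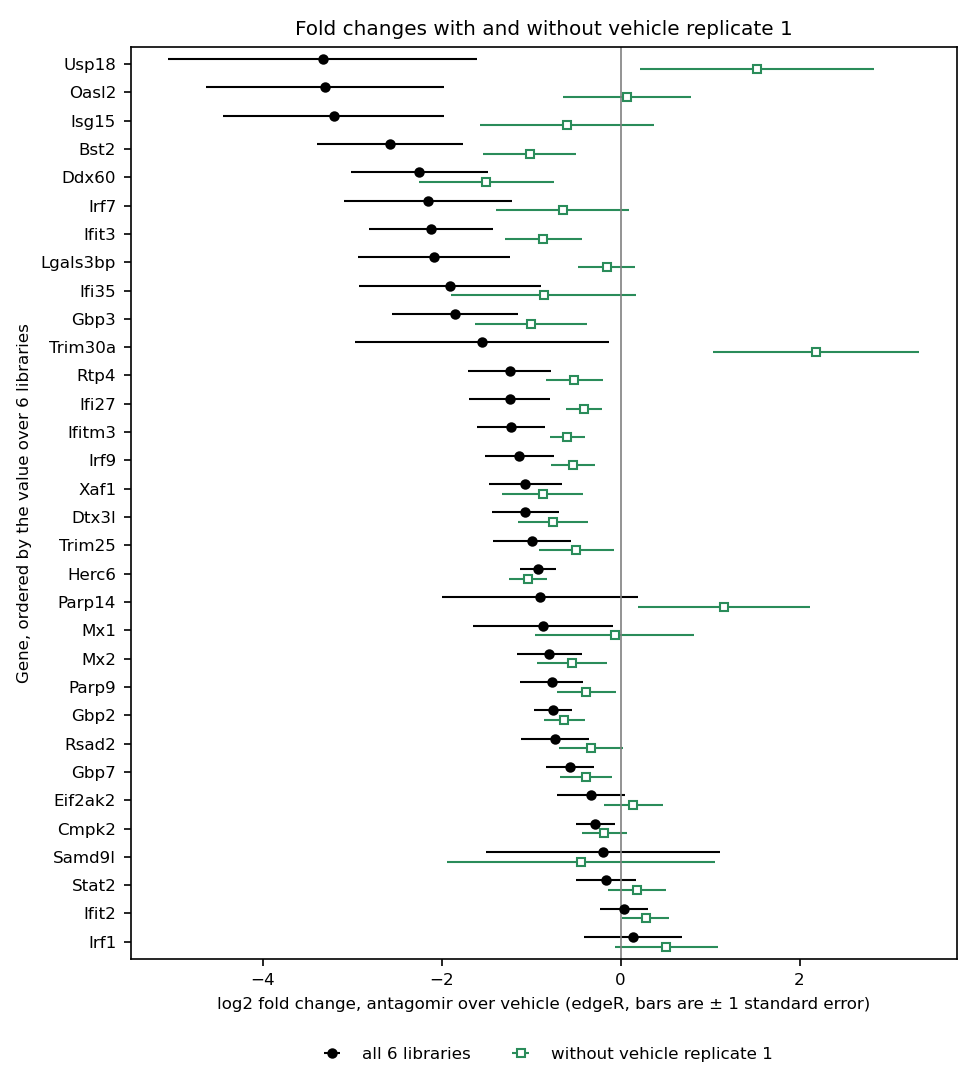
The log2 fold change of antagomir over vehicle (x axis, edgeR, bars ± 1 standard error) for each of the 32 tested interferon-stimulated genes (rows), over all 6 libraries (black circles) and without vehicle replicate 1 (green open squares). Herc6 and Gbp2 kept nearly the same value in both fits, while Usp18, Trim30a and Parp14 moved across 0.

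The 7 members that were not tested were Ifit1, Oas1a, Oas2, Oas3, Oasl1, Zbp1 and Ifi44. Of these, 5 had most of their counts in vehicle replicate 1, so the 32 tested members leave out part of what set that library apart. Members from the same locus share neighbourhood and in part sequence, with 18 of the 39 lying in 7 clusters of 2 or 3 members no more than 200 kb apart, and they are not independent of each other.

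Upstream of these genes, 42 other genes of the interferon pathway were measured and 21 were tested. None of them passed (0 higher and 0 lower, edgeR adjusted p at least 0.949, with 0 of the 21 under an unadjusted p of 0.05), and 13 had a lower and 8 a higher fitted level with antagomir, with a median of -0.10. Without vehicle replicate 1, 12 of 23 had a lower fitted level. Of 21 interferon genes 16 had 0 counts in every library, including 13 of 14 interferon alpha genes. Ifnb1, the gene of interferon beta, had 22 counts in vehicle replicate 1, 4 in antagomir replicate 3 and 0 in the others. Ifng, the gene of interferon gamma, had 12, 2 and 15 counts with vehicle and 0, 25 and 11 with antagomir, without separation of the groups.

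The genes of both subunits of the type I receptor were detected in every library. Ifnar1 measured 29.8, 40.1 and 38.9 TPM with vehicle and 40.4, 43.6 and 39.3 TPM with antagomir, lowest in vehicle replicate 1, with a fold change of 0.13 ± 0.16, or 0.01 ± 0.16 over 5 libraries. Ifnar2 measured 54.4, 37.5 and 39.7 TPM with vehicle and 44.4, 36.1 and 48.5 TPM with antagomir, with a fold change of -0.10 ± 0.22, or 0.06 ± 0.24 over 5 libraries, and for both the groups overlapped. Irf3, which triggers the first interferon transcription, measured 63.6, 96.4 and 80.3 TPM with vehicle and 54.1, 64.5 and 78.2 TPM with antagomir. Its groups overlapped over 6 libraries, with a fold change of -0.31 ± 0.19, or -0.40 ± 0.21 over 5 libraries. Without vehicle replicate 1 every antagomir library lay below the vehicle libraries for Irf3, as in 10.5% of all tested genes. Among the genes of the list with the smallest p were Irf8, Irf5 and Ptpn6, all known for strong expression in microglia and in blood cells. Irf8, a factor of the myeloid lineage, measured 30.6, 4.54 and 3.76 TPM with vehicle and 0.949, 6.43 and 5.49 TPM with antagomir, and Ptpn6, a phosphatase of blood cells, 30.8, 4.96 and 5.42 TPM with vehicle and 4.43, 7.16 and 5.22 TPM with antagomir. Irf5 measured 14.8, 5.02 and 0.119 TPM with vehicle and 2.16, 3.10 and 0.377 TPM with antagomir. All 3 were highest in vehicle replicate 1, where the microglia markers were also highest, and their fold changes of -2.10 ± 0.96, -1.84 ± 0.89 and -2.21 ± 1.25 became -0.48 ± 0.77, -0.27 ± 0.70 and -0.99 ± 1.27 without it. The part of microglial RNA in these values was not tested.

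**Figure D5:**
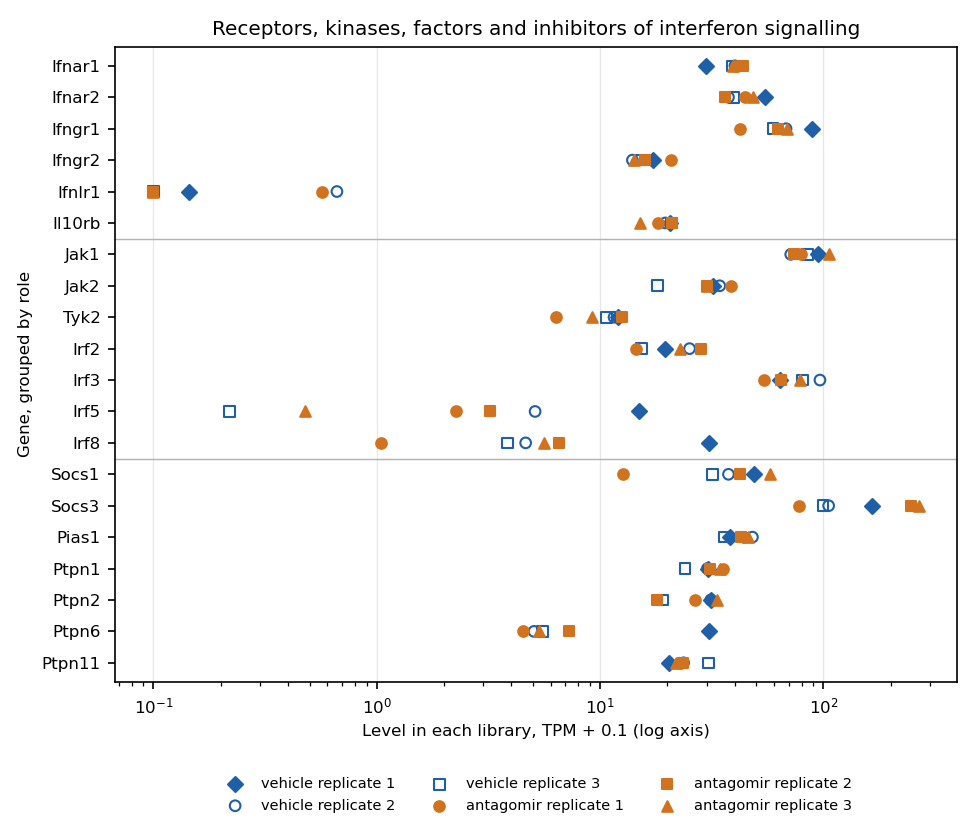
Level of receptor, kinase, factor and inhibitor genes of interferon signalling in each of the 6 libraries (x axis, TPM + 0.1 on a log axis; rows grouped as receptors, kinases and factors, and inhibitors; blue for vehicle, orange for antagomir). Most rows are tight, and Irf8 and Ptpn6 have vehicle replicate 1 (filled diamond) well to the right.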

How the data were processed

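The 6 files hold 1 library each of RNA made into cDNA with SMART-Seq v4, which does not mark strand, and read as 100 bp pairs, per the labels. Groups come from the labels' treatment group, since their treatment text names the antagomir for all samples. kallisto, sleuth and the mouse build mm10 appear in the submitters' processing notes, without versions or roles. Per the file headers, the deposited expected counts (estimated counts per transcript) are not normalized, and the deposited TPM values are scaled per effective length and library. kallisto divides reads between similar transcripts by a model, so near copies are uncertain.

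Of 99567 transcripts 98294 (98.7%) matched GENCODE M21 (GRCm38) by identifier, and the rest held 0.524 to 0.586% of counts and were left out. Counts and TPM were summed per gene. Libraries held 14866453 to 19694409 counts, where 3 counts equal 0.153 to 0.203 CPM; floors cover counting error only. No pair of libraries was alike within sampling noise (chi-square per gene 22.6 to 93.6).

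Counts, rounded to whole numbers, entered edgeR (version 4.0.16, under R 4.3.3; TMM factors, filterByExpr with minimum count 10, robust quasi-likelihood, group only, Benjamini-Hochberg over all tested genes, threshold 0.05). Alternatives were DESeq2 1.42.0, limma 3.58.1 on log2(TPM + 1), other filters and scalings, a replicate block and leaving out each library. A standard error is the unshrunken coefficient divided by the square root of F. The test was also run on simulated counts in which no library was set apart. That run does not show how the test performs with a library such as vehicle replicate 1. Per-library values were given for up to 3 tested members per role with the smallest p and the most abundant of each role, and in the pathway list for the genes with the smallest p and Ifnar1, Ifnar2 and Irf3; some genes that enter the counts are not reported here by name. Other members are named to account for the whole list. The per-library values of Ifit1, Usp18, Lgals3bp, the untested members, Ifit3b, Ifitm1, Ifitm2, Ifi27l2a and the Herc6 transcript were chosen after values were seen. The members, lists and rules were chosen with earlier results of these data known.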

Additional observations from a re-analysis of the deposited data

How the results depend on the processing

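Of 402 refits of 31 named genes, each changing 1 choice from the edgeR fit of 6 libraries, 388 kept the direction and 0 passed the threshold. Irf1 turned to -0.15 with limma on log2(TPM + 1) and to -0.03 with the replicate block. Leaving out 1 library at a time gave ranges that crossed 0 for Stat2 (-0.41 to 0.18), Irf1 (-0.46 to 0.58), Ifit2 (-0.13 to 0.28), Oasl2 (-4.02 to 0.07), Eif2ak2 (-0.58 to 0.14), Parp14 (-1.93 to 1.16) and Ifnar2 (-0.21 to 0.06), in which Oasl2, Eif2ak2 and Parp14 turned only without vehicle replicate 1. The members' median log2 fold change was -1.42 to -0.467 with 1 library left out, the latter without vehicle replicate 1, and -1.18 to -0.659 under the other alternatives. DESeq2 called 5 genes where edgeR called 0 (616 at an unadjusted p under 0.05), and in the 5 libraries it called 1 member, Herc6, where edgeR called 0; the cause was not tested. Deviations of same-numbered libraries correlated at 0.195, 0.075 and 0.028, not above 0.1 in every pair, so the replicate numbers were not taken as pairs; with the replicate block 0 genes were called and the members' median was -0.91. Members with few counts outside vehicle replicate 1 (Isg15, Usp18, Trim30a) are limited by depth, and so is Samd9l, with 2 to 48 counts in a library.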
